A study of Homo sapiens with 12 samples.

Results

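The 9 genes described here encode the factors of nonsense-mediated mRNA decay (NMD): UPF1, UPF2, UPF3A, UPF3B, SMG1, SMG5, SMG6, SMG8 and SMG9. They were found by gene symbol among the 60106 genes of the count tables, and each matched 1 gene. The study reduced FOXA1, a forkhead transcription factor that opens chromatin in prostate cells, in 2 established human prostate cancer lines and sequenced the RNA. PC3 received 20 nM of a non-targeting siRNA (NSI) or of an siRNA against FOXA1 (siFOXA1), and VCaP received 40 nM of either. Each of the 4 groups held 3 libraries, made 72 h after transfection, so n = 3 for every mean and SD below. PC3 was grown in RPMI-1640 and sequenced from polyadenylated RNA, whereas VCaP was grown in DMEM and sequenced from total RNA, so line, dose, medium and library kit cannot be told apart. Each line is 1 model of the disease, and the labels do not say whether the FOXA1 siRNA was 1 sequence or a pool. No label says that replicates came from separate cultures, so p-values measure the spread between these libraries, which may be technical.

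NMD degrades transcripts in which translation stops too early, and also many normal transcripts with short upstream reading frames or an intron behind the stop codon. The helicase UPF1 is bound by UPF2, which UPF3A or UPF3B links to the exon junction complex, and UPF1 is then phosphorylated by the kinase SMG1, held in check by SMG8 and SMG9. Phosphorylated UPF1 recruits SMG6, an endonuclease that cuts near the stop codon, and SMG5, an adaptor for decapping and deadenylation. Several of these factors are themselves NMD targets.

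After siFOXA1, UPF2, UPF3A and SMG1 rose and SMG9 fell in VCaP, and SMG6 rose and SMG9 fell in PC3. Called means an adjusted p under 0.05 in edgeR's quasi-likelihood test, with Benjamini-Hochberg adjustment over all genes tested in that comparison. In VCaP 4 of 9 factors were called, where 45.8% of the 22939 genes tested were. In PC3 2 of 9 were called, where 27.7% of 26478 genes were. Among genes with at least 5 counts per 1000000 library counts, 57.02% were called in VCaP and 32.78% in PC3. The shares of factors lie near or below these backgrounds. The number of factors called is therefore not a result about the pathway, and the factors are described 1 by 1. Shares by direction given below are over all genes tested. In bulk RNA, fewer cells of a type and less RNA per cell cannot be told apart. All 9 passed the filter on low counts in both lines. The siFOXA1 and NSI libraries did not overlap for 45.1% of all genes tested in PC3 and 55.9% in VCaP. Among the factors siFOXA1 lay above NSI for 1 and below for 4 in PC3, and above for 3 and below for 2 in VCaP. Groups without overlap are thus common in these data and are given below as description. The median log2 fold change of the 9 was -0.10 in PC3 and 0.03 in VCaP, beside -0.01 and 0.02 over all genes tested.

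The stretches of 250 bases before annotated transcription starts of the factors that changed in VCaP are shown because FOXA1 binds DNA through forkhead motifs. They come from RefSeq on GRCh38.p14, another build than the GRCh37 of the count tables. Promoter windows were found for 8 of the 9 factors (15 windows of 300 bases, 250 before and 50 from the start on), and SMG8 had no entry. The motifs were searched on both strands: a forkhead core (TGTTTAC or TGTTTGC), an ETS core (CCGGAAG) and a GC box (GGGCGG). Capitals mark these motifs or their reverse complements, and a match that begins inside a marked one is not marked.
UPF2, chr10:12043171-12043420, minus strand: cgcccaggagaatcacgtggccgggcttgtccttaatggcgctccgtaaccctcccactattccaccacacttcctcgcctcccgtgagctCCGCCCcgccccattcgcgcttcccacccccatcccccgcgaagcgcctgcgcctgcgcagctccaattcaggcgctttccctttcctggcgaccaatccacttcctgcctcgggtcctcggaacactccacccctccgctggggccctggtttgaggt
UPF3A, chr13:114281351-114281600, plus strand: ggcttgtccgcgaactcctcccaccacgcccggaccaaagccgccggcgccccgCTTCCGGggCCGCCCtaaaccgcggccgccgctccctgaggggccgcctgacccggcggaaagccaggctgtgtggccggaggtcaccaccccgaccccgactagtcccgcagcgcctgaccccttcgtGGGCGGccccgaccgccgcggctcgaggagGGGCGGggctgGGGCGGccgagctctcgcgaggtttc
SMG1, chr16:18926409-18926658, minus strand: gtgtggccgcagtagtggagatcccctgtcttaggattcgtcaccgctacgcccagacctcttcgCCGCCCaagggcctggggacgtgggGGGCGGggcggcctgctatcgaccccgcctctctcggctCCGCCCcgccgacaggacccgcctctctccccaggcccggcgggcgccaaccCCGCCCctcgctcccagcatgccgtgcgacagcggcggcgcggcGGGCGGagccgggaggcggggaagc
SMG9, chr19:43754963-43755212, minus strand: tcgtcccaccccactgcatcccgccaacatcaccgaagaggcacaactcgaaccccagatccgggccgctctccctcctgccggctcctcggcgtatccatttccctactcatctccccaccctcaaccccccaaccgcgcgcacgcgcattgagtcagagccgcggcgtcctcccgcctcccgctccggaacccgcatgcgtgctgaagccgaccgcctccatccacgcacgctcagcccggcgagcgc
None of these 4 stretches holds a forkhead core, and the UPF3A stretch holds the ETS core. SMG1 and UPF3A hold several marked GC boxes, UPF2 holds 1 marked, and SMG9 none. In UPF2 and SMG1 a further GC box begins at the last letter of a marked one. Over all 15 windows of the factors the forkhead core was found in 1, and 7.2% of the 35116 RefSeq windows of that length hold it. That window lies before an internal start of SMG6 and is shown because it holds the match. The other SMG6 windows, among them the most upstream, hold no forkhead core. For the 4 factors above the most upstream window was shown.
SMG6, chr17:2236848-2237097, minus strand: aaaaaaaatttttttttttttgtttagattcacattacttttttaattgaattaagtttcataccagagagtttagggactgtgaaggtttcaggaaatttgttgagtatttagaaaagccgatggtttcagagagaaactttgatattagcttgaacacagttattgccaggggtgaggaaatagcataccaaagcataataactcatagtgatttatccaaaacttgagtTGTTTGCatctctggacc
The ETS core was in 1 of the 15 windows, against 10.3% of all windows, and the GC box in 10 of 15, against 45.0%. A match describes the letters and is no evidence of binding, and its absence from these windows says nothing about FOXA1 elsewhere.

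The siRNA target was reduced in both lines. FOXA1 was at 303.4, 244.1 and 265.8 counts per 1000000 library counts (CPM) in the PC3 NSI libraries and at 163, 182.2 and 161.9 CPM after siFOXA1, a log2 change of -0.68 ± 0.10 (SE; adjusted p = 0.0022). In VCaP it went from 457.6, 467.8 and 543.6 CPM to 85.2, 73.6 and 83.0 CPM, a log2 change of -2.60 ± 0.09 (SE; adjusted p = 1.84e-07). The reduction was thus larger in VCaP (difference of the log2 changes -1.94, adjusted p = 2.98e-07), the line with the higher dose. Depth was 123140100 to 188226483 counts per library in PC3 and 48187046 to 59839211 in VCaP. The epithelial markers KRT8, KRT18, EPCAM and CDH1 were present in both lines. In PC3 3 of these 4 fell and 1 rose, with a sum of 409.6 to 506.6 CPM in NSI and 373.5 to 420.4 CPM after siFOXA1. In VCaP 1 fell, with sums of 730.9 to 773.4 and 714.2 to 773.7 CPM. KLK3 and TMPRSS2 stayed under 1 CPM in PC3. Of 7 markers of immune, endothelial and stromal cells found, PTPRC, CD3E and DCN were under 1 CPM in both lines. In PC3 4 of the 5 tested were called higher and none lower, and the list summed to 21.2 to 24.4 CPM in NSI and 34.9 to 39.0 CPM after siFOXA1. In VCaP 1 of the 4 tested was called higher and 1 lower, with sums of 7.11 to 11.3 and 5.73 to 9.97 CPM. All 10 interferon-response genes listed rose in PC3, from a sum of 475.9 to 718.4 CPM to 5191 to 5359 CPM. In VCaP 6 of them rose and 2 fell, and the sum was 153.2 to 162.7 CPM in NSI and 141.4 to 154.6 CPM after siFOXA1. The mitochondrial share of counts moved with the groups in VCaP, from 3.02% to 3.29% in NSI to 4.04% to 4.69%, and lay between 13.09% and 15.65% in PC3. The part of these differences in the changes below was not tested.

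UPF1 (ENSG00000005007.12_3, chr19:18942747-18979045, plus strand; this and the coordinates that follow are GRCh37), the helicase at the centre of the pathway, was not called in either line. In PC3 it was at 157.5, 149.1 and 165.0 CPM in NSI and 152.5, 146.3 and 142.0 CPM after siFOXA1, a log2 change of -0.10 ± 0.08 (SE; adjusted p = 0.41). In VCaP it was at 131.1, 125.5 and 116.7 CPM in NSI and 128.5, 130.2 and 102.9 CPM after siFOXA1, a change of -0.05 ± 0.10 (SE; adjusted p = 0.72). The groups overlapped in both lines, and the lowest VCaP value was the third siFOXA1 library.

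UPF2 (ENSG00000151461.19_3, chr10:11962021-12085169, minus strand), the bridge between UPF1 and the UPF3 proteins, rose in VCaP. Its 3 NSI libraries were at 51.0, 55.9 and 49.1 CPM and its 3 siFOXA1 libraries at 69.5, 69.2 and 76.3 CPM. The groups did not overlap, and the log2 change was 0.46 ± 0.07 (SE; adjusted p = 5.08e-04). In PC3 UPF2 was at 41.7, 33.2 and 37.5 CPM in NSI and 37.7, 32.7 and 36.4 CPM after siFOXA1, a change of -0.07 ± 0.11 (SE; adjusted p = 0.64). There the groups overlapped, and the second library was the lowest of both groups. The change differed between the lines by 0.52 ± 0.14 (SE, VCaP minus PC3; adjusted p = 0.0126, edgeR interaction of line and siRNA). That call was lost without the first or the third PC3 NSI library (adjusted p = 0.0798 and 0.06398) or without the second PC3 siFOXA1 library (adjusted p = 0.0647).

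UPF3A (ENSG00000169062.14_2, chr13:115047059-115071292, plus strand), the paralog of UPF3B with weaker NMD activity, also rose in VCaP. It went from 7.70, 8.19 and 7.58 CPM to 10.4, 9.32 and 10.5 CPM. All siFOXA1 libraries lay above all NSI libraries, with a log2 change of 0.37 ± 0.09 (SE; adjusted p = 0.0068). In PC3 all siFOXA1 libraries, at 36.8, 34.3 and 35.5 CPM, lay below all NSI libraries, at 38.9, 40.2 and 38.4 CPM, but the change of -0.14 ± 0.08 (SE) was not called (adjusted p = 0.21). The lines differed by 0.49 ± 0.11 (SE; adjusted p = 0.0052). UPF3A has processed copies: its pseudogenes held 6.39% to 7.60% of the combined UPF3A and pseudogene counts in PC3 and 13.6% to 18.6% in VCaP. Among them UPF3AP3 rose in PC3 by 1.88 ± 0.23 (SE, log2; adjusted p = 6.48e-04), at under 1 CPM in every PC3 library.

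UPF3B (ENSG00000125351.11_4, chrX:118967985-118986961, minus strand), the more active of the UPF3 pair, was not called in either line. In PC3 its NSI libraries were at 71.1, 71.3 and 65.2 CPM and its siFOXA1 libraries, all lower, at 64.3, 58.7 and 62.2 CPM (log2 change -0.16 ± 0.08, SE; adjusted p = 0.17). In VCaP the groups overlapped, at 6.49, 7.13 and 6.55 CPM in NSI and 7.88, 7.10 and 7.83 CPM after siFOXA1 (0.18 ± 0.09, SE; adjusted p = 0.14). VCaP libraries held 337 to 411 UPF3B counts each, the fewest of the 9 factors.

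The UPF3A to UPF3B ratio of levels per kilobase of exon separated the groups in VCaP. It was 1.116, 1.078 and 1.085 in NSI and 1.247, 1.236 and 1.265 after siFOXA1. Every siFOXA1 library had the higher ratio, a log2 difference of 0.19 (exact two-sided permutation test, p = 0.1, the smallest that 3 against 3 libraries allow). In PC3 it was 0.514, 0.530 and 0.553 in NSI and 0.538, 0.549 and 0.536 after siFOXA1, a log2 difference of 0.02 that turned to -7e-04 without the first NSI library (exact permutation p = 0.5 with all libraries). Whether the 2 differences differ was not tested.

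**Figure D1:**
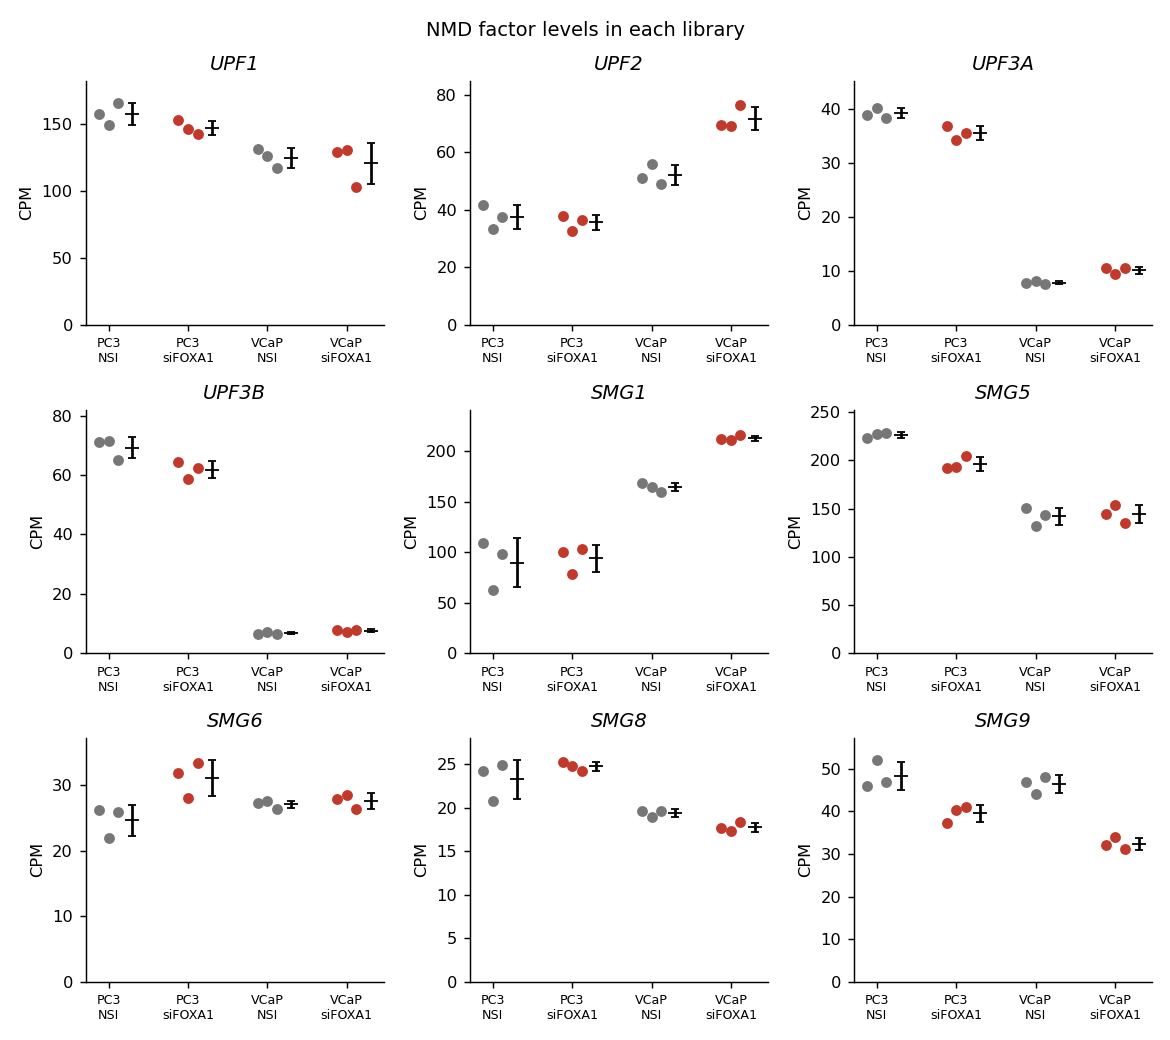
CPM (linear axis from 0) of each NMD factor in the 12 libraries. Points are libraries (grey NSI, red siFOXA1) and the black marks give mean ± SD of 3. UPF2, UPF3A and SMG1 lie higher after siFOXA1 in VCaP, SMG9 lies lower in both lines, and SMG6 lies higher in PC3.

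SMG1 (ENSG00000157106.12, chr16:18816175-18937776, minus strand), the kinase that phosphorylates UPF1, rose in VCaP. It went from 168.2, 164.7 and 160.1 CPM to 212.1, 211.2 and 215.9 CPM, with no overlap between groups. The log2 change was 0.37 ± 0.06 (SE; adjusted p = 6.70e-04), and with the spread shared over all 12 libraries it was 0.40 (adjusted p = 0.0747), no longer called. In PC3 SMG1 was at 109.0, 62.2 and 98.0 CPM in NSI and 100.7, 78.9 and 103.3 CPM after siFOXA1, with the second library low in both groups (0.07 ± 0.20, SE; adjusted p = 0.81). Without the second NSI library the PC3 value turned to -0.09 (adjusted p = 0.63). The change did not differ between the lines at the threshold (0.29 ± 0.22, SE; adjusted p = 0.42).

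SMG1 has partial copies on chromosome 16, the pseudogenes SMG1P1 to SMG1P7, whose reads can be confused with its own because the authors split multi-mapping reads among their locations. These copies held 25.3% to 30.9% of the combined SMG1 and pseudogene counts in PC3. In VCaP they held 53.0%, 57.6% and 53.4% in NSI and 59.1%, 59.8% and 60.7% after siFOXA1. In VCaP 6 of the 7 copies rose, by log2 changes of 0.62 (SMG1P6) to 0.80 (SMG1P5), each larger than that of SMG1, and SMG1P7 changed by 0.21 ± 0.08 (SE; adjusted p = 0.0605). SMG1P3, the copy with the most counts, went from 61.4, 74.2 and 60.4 CPM to 99.9, 101.8 and 110.1 CPM, with every siFOXA1 library higher. With the counts of SMG1 and the 7 copies summed, the VCaP change was 0.55 (adjusted p = 2.40e-04). Without the replicate block none of the 7 copies was called in PC3, where the values ran from -0.31 ± 0.11 for SMG1P6 (SE; adjusted p = 0.0597, and 0.0278 with the replicate block, which called it) to 0.22 ± 0.21 for SMG1P1 (SE; adjusted p = 0.46).

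**Figure D2:**
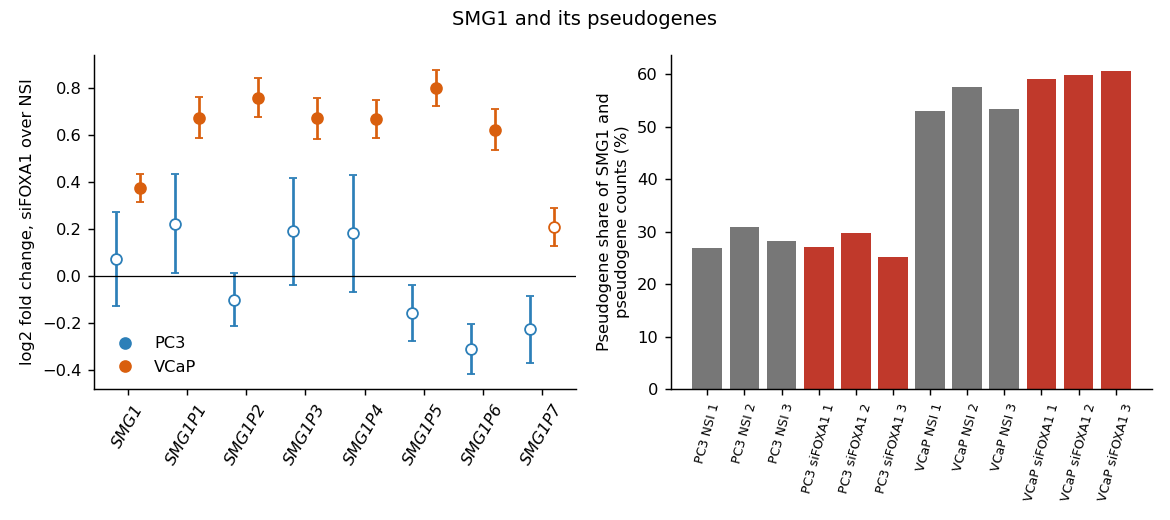
Left, log2 fold change of siFOXA1 over NSI with its SE for SMG1 and its 7 pseudogenes in PC3 (blue) and VCaP (orange), where filled points were called. Right, percent of the combined counts that fell in the pseudogenes in each library, grey NSI and red siFOXA1. In VCaP the pseudogene share was 53.0% to 57.6% in NSI and 59.1% to 60.7% after siFOXA1.

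SMG8 (ENSG00000167447.12_3, chr17:57286761-57292608, plus strand), an inhibitory partner of SMG1, was not called. In VCaP it was at 19.6, 18.9 and 19.7 CPM in NSI and lower in each siFOXA1 library, at 17.7, 17.3 and 18.4 CPM (log2 change -0.13 ± 0.06, SE; adjusted p = 0.13). In PC3 the groups overlapped, at 24.2, 20.8 and 24.9 CPM in NSI and 25.3, 24.8 and 24.2 CPM after siFOXA1 (0.09 ± 0.09, SE; adjusted p = 0.53). Exons of CTD-2510F5.6 cover 11.25% of the SMG8 exon bases on the same strand, and that gene fell in both lines (PC3 log2 change -0.61 with adjusted p = 0.0099, VCaP -0.71 with adjusted p = 9.24e-04) at 2.64 to 5.44 CPM.

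SMG9 (ENSG00000105771.13_3, chr19:44232144-44259142, minus strand), which joins SMG8 to the kinase, fell in both lines. In VCaP it went from 46.9, 44.1 and 48.2 CPM to 32.03, 34.0 and 31.2 CPM. This was 69.9% of the NSI level, the largest change among the 9 factors, with a log2 change of -0.52 ± 0.06 (SE; adjusted p = 1.12e-04). In PC3 it went from 46.0, 52.0 and 47.0 CPM to 37.2, 40.4 and 41.0 CPM, again without overlap (-0.29 ± 0.09, SE; adjusted p = 0.0397). Leaving out any 1 of the 6 PC3 libraries ended the PC3 call, with adjusted p between 0.0623 and 0.24, and the value stayed between -0.31 and -0.19. That call was also lost with upper-quartile factors (0.0928), library size alone (0.14), no filter on low counts (0.0624) or fractions of 0.5 rounded to the even number (0.0702). The VCaP call held in all 15 alternatives run. The difference between the lines was not called (-0.24 ± 0.11, SE; adjusted p = 0.15), except without the second PC3 NSI library (-0.33, adjusted p = 0.0349).

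SMG6 (ENSG00000070366.13_4, chr17:1963137-2207065, minus strand), the endonuclease of the pathway, rose in PC3. It went from 26.2, 22.0 and 25.9 CPM to 31.8, 28.02 and 33.5 CPM, and the lowest siFOXA1 library lay above the highest NSI library. The log2 change was 0.33 ± 0.11 (SE; adjusted p = 0.0470, and 0.0021 with the replicate number as a block). The call was lost without the first or the third NSI library (adjusted p = 0.0539 and 0.0953) or the first or the third siFOXA1 library (adjusted p = 0.11 and 0.15). In VCaP SMG6 was at 27.3, 27.6 and 26.5 CPM in NSI and 27.9, 28.6 and 26.3 CPM after siFOXA1, overlapping groups with a change of 0.03 ± 0.06 (SE; adjusted p = 0.73). The interaction was not called (-0.32 ± 0.13, SE; adjusted p = 0.0945). It was called with the replicate block (adjusted p = 0.0129), with library size alone (-0.41, adjusted p = 0.0448) and without the second PC3 siFOXA1 library (-0.47, adjusted p = 0.0140). Exons of HIC1 on the other strand cover 27.67% of the SMG6 exon bases, and PC3 was counted without strand, so reads there cannot be assigned to 1 of the genes. HIC1 was at 10.4 to 11.2 CPM in PC3 NSI and 11.4 to 12.2 CPM after siFOXA1 (0.17, log2; adjusted p = 0.20), and its part in the SMG6 change was not tested.

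SMG5 (ENSG00000198952.8_2, chr1:156219015-156252616, minus strand), the adaptor for decapping and deadenylation, missed the threshold in PC3. It was at 223.1, 226.9 and 228.9 CPM in NSI and 191.7, 193.0 and 204.3 CPM after siFOXA1, all of them lower. The log2 change of -0.20 ± 0.08 (SE) had an adjusted p of 0.0797, and with the replicate number as a block it was called (-0.21, adjusted p = 0.0196). In VCaP SMG5 was at 150.3, 132.5 and 143.6 CPM in NSI and 144.3, 153.4 and 134.8 CPM after siFOXA1, with overlap (0.02 ± 0.07, SE; adjusted p = 0.85). With the block 3 of 9 factors were called in PC3 (SMG5, SMG6 and SMG9), where 42.8% of all genes were.

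**Figure D3:**
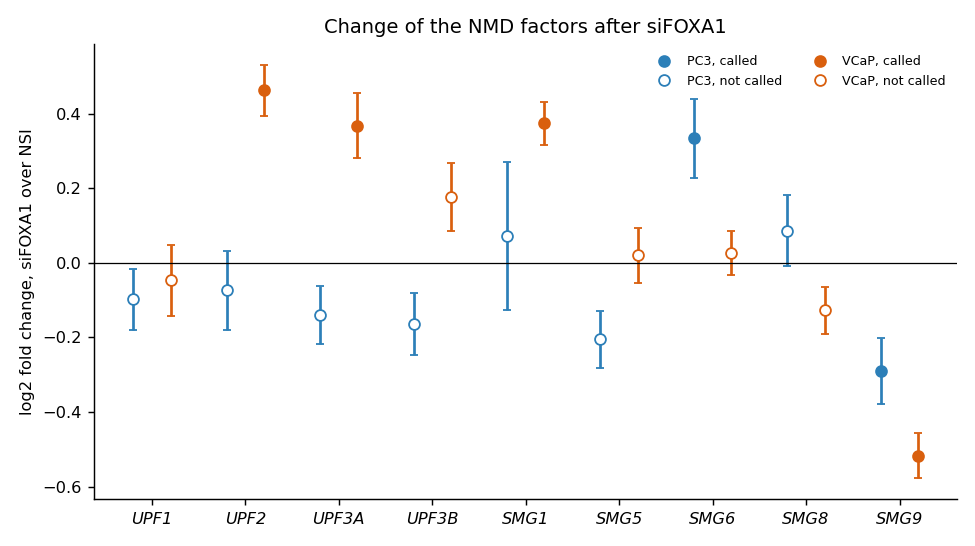
Log2 fold change of siFOXA1 over NSI with its SE for each NMD factor in PC3 (blue) and VCaP (orange). Filled points had an adjusted p under 0.05 without the replicate block. Without the block a difference between the lines was called for UPF2, at -0.07 in PC3 and 0.46 in VCaP, and UPF3A, at -0.14 and 0.37. The UPF2 call was lost without some single PC3 libraries.

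Across all 9 factors the siFOXA1 effect differed between the lines for UPF2 and UPF3A, both higher in VCaP, where 22.1% of 30450 genes tested differed and 11.1% were higher in VCaP. UPF3B had a difference of 0.33 ± 0.12 (SE; adjusted p = 0.0637), SMG5 0.21 ± 0.11 (SE; adjusted p = 0.23), SMG8 -0.23 ± 0.12 (SE; adjusted p = 0.19) and UPF1 0.04 ± 0.13 (SE; adjusted p = 0.93). With the replicate block 4 of 9 differed (UPF2, UPF3A, UPF3B and SMG6), where 29.0% of all genes did, 15.0% higher and 14.0% lower in VCaP.

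Levels per kilobase of exon (FPKM) gave the order of the factors within each line. SMG5 was highest in every group, at 49.6 ± 0.6 (SD) FPKM in PC3 NSI and 31.2 ± 2.0 (SD) FPKM in VCaP NSI. UPF1 came next, at 29.2 ± 1.5 (SD) and 23.1 ± 1.4 (SD) FPKM, and in PC3 its libraries overlapped those of UPF3B at 29.1 ± 1.5 (SD) FPKM. UPF3A followed in PC3 at 15.5 ± 0.4 (SD) FPKM. SMG9, at 7.92 ± 0.52 (SD) FPKM, came before UPF2, SMG8, SMG1 and SMG6 in PC3 NSI, and from UPF2 on down to SMG6 at 3.84 ± 0.37 (SD) FPKM each gene overlapped the next. In VCaP NSI the UPF3 pair was lowest instead, UPF3A at 3.09 ± 0.13 (SD) and UPF3B at 2.83 ± 0.15 (SD) FPKM, and these 2 overlapped. Above them SMG1, at 9.49 ± 0.24 (SD) FPKM, overlapped UPF2 at 8.80 ± 0.60 (SD) FPKM, and SMG9, SMG8 and SMG6 followed without overlap. After siFOXA1 in VCaP UPF3A, at 3.99 ± 0.27 (SD) FPKM, no longer overlapped UPF3B, at 3.20 ± 0.18 (SD) FPKM, and overlapped SMG6, at 4.29 ± 0.18 (SD) FPKM.

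Between the NSI groups UPF3B was 9.66-fold and UPF3A 4.77-fold higher in PC3 than in VCaP by CPM. SMG5 was 1.59-fold higher in PC3, and for SMG1 the PC3 level was 0.548 of that in VCaP. Over the 19282 genes tested in both lines the median ratio was 1.01. Library kit and strand use differ with the line, so these ratios are a description of the libraries and were not tested.

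**Figure D4:**
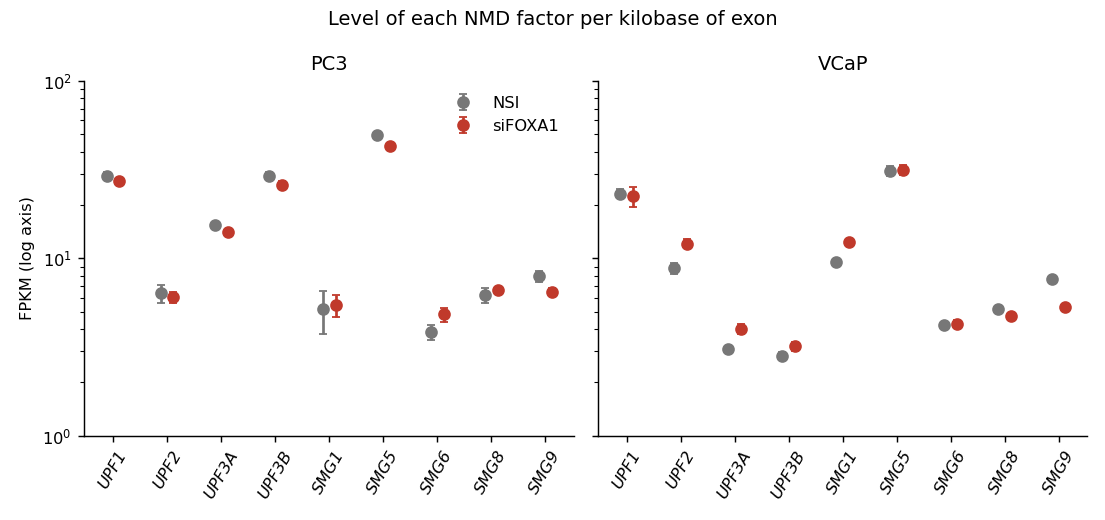
Level of each NMD factor per kilobase of exon (FPKM, log axis) in PC3 and VCaP, as mean ± SD of 3 libraries, grey NSI and red siFOXA1. UPF3A and UPF3B are ranks 4 and 3 in PC3 and the lowest 2 in VCaP, and SMG5 is highest in each group.

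Among 20 partners of the pathway, which include exon junction, cap-binding and release factors, none rose in either line. In PC3 8 of 20 fell, where 13.9% of all genes fell (11 with the replicate block, where 23.1% did), and their median log2 change was -0.24 beside -0.01 over all genes. In VCaP 10 of the 19 tested fell, where 23.3% of all genes did, with a median of -0.25 beside 0.02. Among genes of at least 5 CPM a larger share was called in either direction, 32.78% in PC3 and 57.02% in VCaP. Without single PC3 libraries (the first or the third of NSI, or the first or the third of siFOXA1) the PC3 count was 4 or 5. Calls over all genes also dropped in these fits, to 5783, 4738, 3963 and 5078 in that order, from 7344. RNPS1, NCBP1, PABPC1 and RUVBL1 were called lower in both lines with all libraries. RNPS1, a splicing activator on exon junction complexes, went from 107.4 ± 3.6 (SD) to 75.5 ± 4.0 (SD) CPM in PC3 (log2 change -0.51, adjusted p = 0.0029), and changed by -0.25 in VCaP (adjusted p = 0.0125, and 0.0528 with the spread shared over all 12 libraries). NCBP1, the large cap-binding subunit, had a log2 change of -0.36 in PC3 with adjusted p = 0.0240 and of -0.45 in VCaP with adjusted p = 1.48e-04. Its PC3 call was lost with upper-quartile factors (adjusted p = 0.0561), with library size alone (0.0644) and without any 1 PC3 library other than the second of NSI (0.0585 to 0.0904). NCBP2, the small cap-binding subunit, fell in PC3 by 0.46 on the log2 scale (adjusted p = 0.0030) and was at 41.3 ± 1.5 (SD) and 43.0 ± 1.0 (SD) CPM in VCaP. DHX34, a helicase that acts with UPF1, fell in PC3 by 0.44 on the log2 scale (adjusted p = 0.0065). PPP2CA, a phosphatase subunit linked to UPF1 dephosphorylation, fell in VCaP from 120.6 ± 3.4 (SD) to 68.6 ± 2.5 (SD) CPM (-0.81, adjusted p = 5.80e-06).

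Of 20 enzymes that degrade mRNA after NMD has begun, 1 rose and 3 fell in PC3, where 13.9% of all genes moved in each direction, and 3 rose and 5 fell in VCaP, where 22.5% rose and 23.3% fell. With the replicate block 4 rose and 8 fell in PC3, where 19.7% of all genes rose and 23.1% fell. Without the first siFOXA1 library 1 rose and 0 fell in PC3, and without the third NSI library 1 rose and 1 fell. Calls over all genes were 3963 and 4738 there, beside 7344 with all libraries. Among genes of at least 5 CPM 32.78% were called in PC3 and 57.02% in VCaP, in either direction and with all libraries. The exonuclease XRN1, which finishes the downstream fragments left by SMG6, moved in opposite directions. In PC3 it went from 36.4, 22.6 and 34.0 CPM to 94.5, 71.2 and 96.3 CPM (log2 change 1.49 ± 0.19, SE; adjusted p = 8.40e-04), beside the interferon-response genes that rose in the same libraries. In VCaP it went from 90.4, 94.8 and 87.7 CPM to 78.0, 76.6 and 77.1 CPM (-0.24 ± 0.06, SE; adjusted p = 0.0073, and 0.35 with the spread shared over all 12 libraries). The lines differed by -1.75 (adjusted p = 2.59e-05). DCP1A, a decapping activator, fell in VCaP from 69.0 ± 0.5 (SD) to 39.2 ± 0.6 (SD) CPM (-0.81, adjusted p = 2.30e-06). PAN2, a deadenylase, rose in VCaP from 17.5 ± 0.7 (SD) to 27.6 ± 1.0 (SD) CPM (0.66, adjusted p = 3.48e-05). In PC3 PAN2 changed by 0.22, with every siFOXA1 library above NSI (adjusted p = 0.0761, and 0.01715 with the replicate block, which called it). CNOT1, the scaffold of the CCR4-NOT deadenylase, changed by -0.54 in VCaP (adjusted p = 9.94e-05), and its subunit CNOT2 by 0.30 (adjusted p = 0.0027). In PC3 CNOT1 changed by -0.26 (adjusted p = 0.28, and 0.02454 with the replicate block, which called it).

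Of 24 transcripts known as NMD substrates, 9 fell and none rose in PC3, where 13.9% of all genes moved in each direction. In VCaP 11 rose and 6 fell, where 22.5% of all genes rose and 23.3% fell. Among genes of at least 5 CPM a larger share was called in either direction, 32.78% in PC3 and 57.02% in VCaP. Many of the 24 transcripts are also targets of stress signalling, so their level does not report NMD alone. In PC3 2 rose and 16 fell with the replicate block, where 19.7% of all genes rose and 23.1% fell. Without the first siFOXA1 or the third NSI library 2 and 5 were called, all lower. In those 2 fits 3963 of 27045 and 4738 of 27196 genes tested were called, beside 7344 of 26478 with all libraries. The median log2 change was -0.30 in PC3 and -0.03 in VCaP. In 11 of the 24 the change differed between the lines, each time higher in VCaP, where 11.1% of all genes were. UPP1, a uridine phosphorylase, rose in VCaP from 2.37, 2.77 and 3.11 CPM to 9.47, 10.5 and 11.8 CPM (log2 change 1.94 ± 0.13, SE; adjusted p = 3.57e-06) and was called in PC3 only with the replicate block or without the second NSI library (0.27, adjusted p = 0.14 without the block and 0.0144 with it; 0.39, adjusted p = 0.0468 without that library). CDKN1A, a cell cycle inhibitor, rose in VCaP from 42.9, 29.8 and 28.6 CPM to 116.3, 111.1 and 87.3 CPM (1.64 ± 0.16, SE; adjusted p = 3.92e-05). MAP3K14, a kinase of NF-kappa-B signalling, rose in VCaP from 9.62 ± 0.14 (SD) to 18.7 ± 1.1 (SD) CPM (0.96, adjusted p = 8.55e-06). In PC3 MAP3K14 changed by 0.22 (adjusted p = 0.21, and 0.04368 with the replicate block, which called it). ASNS, asparagine synthetase, fell in PC3 (-0.46, adjusted p = 0.0056) but rose in VCaP (0.35, adjusted p = 0.0011), a difference of 0.80 between the lines (adjusted p = 8.23e-05). ATF4, the stress transcription factor with upstream reading frames, fell in both, by 0.38 in PC3 and 0.36 in VCaP on the log2 scale (adjusted p = 0.0333 and 0.0014). Its PC3 call was lost without the second or the third NSI library (adjusted p = 0.0907 and 0.0719) or the first or the third siFOXA1 library (0.17 and 0.11), and also with upper-quartile factors (0.0537), library size alone (0.0881) or fractions of 0.5 rounded to the even number (0.0553). The snoRNA host SNHG1 also fell in PC3 and in VCaP, with log2 changes of -0.61 (adjusted p = 0.0086, and 0.0584 without the first siFOXA1 library) and -0.44 (adjusted p = 0.0022). BAG1, a co-chaperone, fell in PC3 from 48.8 ± 5.9 (SD) to 29.5 ± 4.2 (SD) CPM (-0.73, adjusted p = 0.0043).

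**Figure D5:**
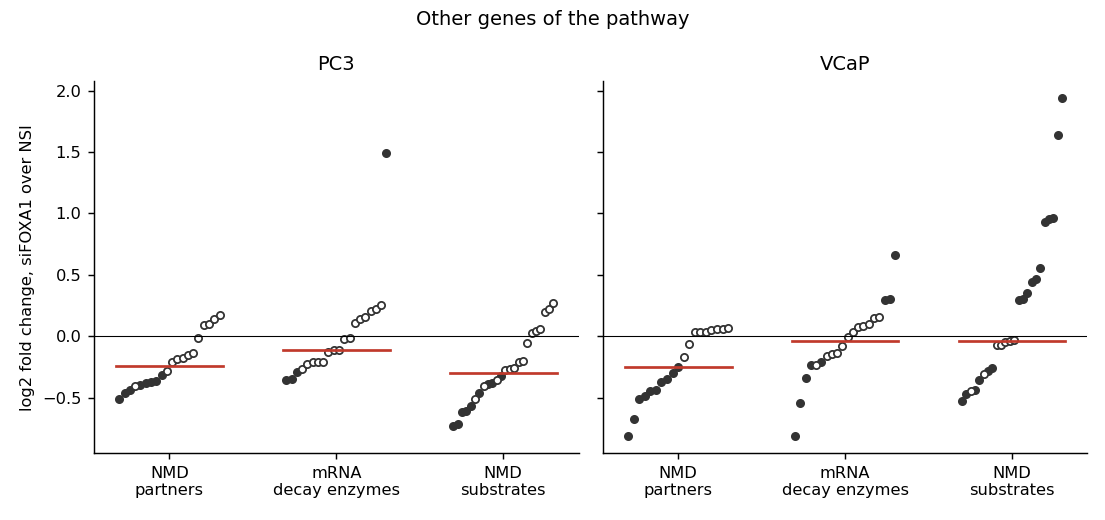
Log2 fold change of siFOXA1 over NSI for each tested gene of 3 lists, sorted within a list, in PC3 and VCaP. Filled points were called, open points were not, and red lines are list medians. The top point of the NMD substrates in VCaP is UPP1 at 1.94, and that of the mRNA decay enzymes in PC3 is XRN1 at 1.49.

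The genes most like 4 of the factors over the 12 libraries were found as the smallest root-mean-square difference in log2 CPM (prior 0.5) relative to the NSI mean of the same line, among 9878 genes of at least 5 CPM in both lines. For SMG9 they were MED22, RTCB and DHX30, at 0.0368, 0.0413 and 0.0434, beside a median of 0.32 over all genes. For SMG6 they were EXOC6B, SEC24C and SORT1, at 0.0490, 0.0536 and 0.0536 (median 0.33). For SMG1 they were CD2AP, MED13L and TEAD1, at 0.0577, 0.0628 and 0.0655 (median 0.38), and for UPF1 they were KMT2B, ZNF746 and NXF1, at 0.0603, 0.0613 and 0.0639 (median 0.24).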

How the data were processed

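RNA-seq libraries were aligned with STAR 2.7.3a, per the submitters' processing notes. The deposited values are expected counts: per the file headers, the authors counted read pairs per gene with featureCounts 2.0.0 on a GENCODE v28 annotation lifted to GRCh37, sharing multi-mapping and multiply overlapping reads as fractions, without strand in PC3 and with reverse strand in VCaP. Counts were rounded to whole numbers, with fractions of 0.5 rounded up. The 12 tables were filtered by filterByExpr, scaled by TMM (factors 0.956 to 1.04) and tested per line with edgeR 4.0.16 (R 4.3.3, quasi-likelihood, Benjamini-Hochberg adjustment over all genes tested). SE is the log2 fold change divided by the root of F. CPM used TMM library sizes, and FPKM is CPM per kilobase of exon. Without strand in PC3, a gene and its antisense partner cannot be told apart.

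The members, gene lists, tests and motifs were chosen with earlier results of these data known. Named genes were all 9 factors, FOXA1, the SMG1P and UPF3AP pseudogenes (matched by gene identifier), up to 3 called genes per list, line and direction with the smallest adjusted p at 5 CPM or more, and the 3 nearest patterns. Not every list gene named by that rule is described, and some listed genes are not reported here. PABPC1 and RUVBL1 were named after their values were seen. In PC3 the deviations of libraries with the same replicate number correlated at 0.669, 0.728 and 0.310 over 12314 genes. The third NSI library correlated more with another siFOXA1 number than with its own. The blocked value stands beside PC3 results whose call it changes. No replicate pair agreed within sampling noise. The tests were tried on simulated counts first. Alternatives were other scalings, DESeq2 1.42.0, no filter, summed pseudogenes, a joint fit, the replicate block, leaving out each library and, chosen after seeing the data, rounding fractions of 0.5 to the even number.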

Additional observations from a re-analysis of the deposited data

Results flagged for a closer look

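The siFOXA1 effect on UPF2 differed between the lines by 0.5202 on the log2 scale (VCaP minus PC3; adjusted p = 0.0126, edgeR interaction term). That on UPF3A differed by 0.4934 (adjusted p = 0.0052). Of all genes tested 22.1% differed, a share near that of the factors. The UPF2 call was lost without the first or the third PC3 NSI library or the second PC3 siFOXA1 library. For both factors VCaP siFOXA1 libraries lay above NSI libraries, and line, dose, medium and library kit cannot be told apart.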

How the results depend on the processing

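In VCaP the 4 called factors were 3 or 4 in every alternative, 3 with all 12 libraries in 1 fit. In PC3 the 2 calls became 1 after upper-quartile scaling, 1 with library size alone, 1 without a filter on low counts and 1 with fractions of 0.5 rounded to the even number (chosen after seeing the data), and 0 to 1 when single libraries were left out. Calls over all genes ran from 3963 to 7628 without single PC3 libraries, beside 7344 with all. With the replicate block 3 factors were called in PC3, and no call of a factor changed in VCaP. For the difference between lines the block gave 4 in place of 2, and leaving out single libraries 1 to 3. In VCaP same-number libraries did not all deviate together (0.164, -0.062 and 0.404), and there only the third NSI library correlated most with its own number. The number may mark no pairing in either line. The log2 difference of the UPF3A to UPF3B ratio (siFOXA1 minus NSI) in PC3 ranged from -7e-04 to 0.0519 without single libraries.

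Directions turned for factors that were not called. UPF2 in PC3 was 0.019 with library size alone and 0.0284 without the first NSI library (-0.1076 to 0.0284 over single libraries). SMG1 in PC3 ran from -0.0897 (without the second NSI library) to 0.2563. UPF1 in VCaP was 0.0026 with upper-quartile factors and -0.1034 to 0.0558 without single libraries (0.0558 without the third siFOXA1). BAG1, a listed NMD substrate and not a factor, was also not called in VCaP and turned to 0.0108 with upper-quartile factors. SMG5 in VCaP ran from -0.0357 to 0.0662 without single libraries. The difference between lines of UPF1 was -0.0511 with library size alone, and ran from -0.0604 to 0.1374 without single libraries. The cause was not tested. Scaling shifted all PC3 calls: 50.04% were higher with TMM, 59.4% by upper quartile and 64.3% when library size alone was used. All PC3 calls numbered 7344, and 3963 without the first siFOXA1 library, 4738 without the third NSI library and 11333 with the replicate block. Among the factors, counts were fewest for UPF3B in VCaP.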
